A study of Homo sapiens with 4 samples.

Results

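The genes described are 53 cilium genes, a set with links to photoreceptor disease, though not every member is a known retinal disease gene. They were taken from a written list of intraflagellar transport (IFT), BBSome, transition zone and ciliary trafficking genes. Matching to the deposited tables was by Ensembl gene ID. Expression values were present for 52 of the 53, and the expression of TMEM231 was not analysed here; it is counted below only where annotated sequence is described. Of these 52, 51 had a mean of at least 1 cRPKM over the 4 libraries, and this filter kept 12706 of 40188 genes with a value in the whole series. KIF17, a motor protein that runs on axonemal microtubules, was the member below it, at 0.47, 0.35 and 0.46 cRPKM in the MSI1, SRRM3 and SRRM4 libraries and 0.44 cRPKM in the empty vector library. The rule for membership is one of function and names no measured value.

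The study asked how MSI1, SRRM3 and SRRM4 act on retinal microexons. Its 4 libraries come from HEK293 cells, a line of human embryonic kidney origin, in which a stably integrated doxycycline-inducible construct carried MSI1, SRRM3 or SRRM4, against an empty vector. All 4 lines, the empty vector line included, grew in medium with tetracycline-free serum and received doxycycline at 1 µg/mL for 24 h. Each group is 1 polyA-selected stranded RNA-seq library of 1 line, so there are no replicates, no test between conditions was possible and no p-value is given. MSI1 is an RNA-binding protein, and SRRM3 and SRRM4 are paralogous splicing activators of very short exons in neurons and photoreceptors.

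A photoreceptor outer segment is a modified primary cilium, joined to the cell body by a connecting cilium that corresponds to the transition zone of other cilia. IFT-B trains pulled by kinesin-II carry cargo to the tip, IFT-A trains with the cytoplasmic dynein of the cilium return it, and the BBSome, recruited by the GTPase ARL6, removes membrane proteins from the cilium. The transition zone gates what enters, and PDE6D and UNC119 carry lipid-modified proteins that the GTPase ARL3 releases inside. Loss of some of these genes underlies Bardet-Biedl syndrome, Joubert syndrome, Leber congenital amaurosis and other retinal degenerations.

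Library totals lay between 60288244 and 63003121 counts. The induced genes followed the labels: MSI1 reached 62.43 cRPKM in the MSI1 library and 8.38 cRPKM in the empty vector library, SRRM3 38.53 and 0.49 cRPKM in the SRRM3 and empty vector libraries, and SRRM4 63.78 and 0.39 cRPKM in the SRRM4 and empty vector libraries. SRRM3 stood at 1.39 cRPKM in the SRRM4 library. None of 20 photoreceptor markers passed the filter, the highest single value was 0.75 cRPKM (NRL), and 3 markers were at 0 in all libraries, so the values below are those of cilium genes in a kidney-derived line and not in photoreceptors. All 7 epithelial and progenitor markers of HEK293 cells passed. Of 11 motile cilium markers with values 2 passed, the highest value being 1.61 cRPKM. Of the other cell types, 1 of 6 fibroblast markers and 0 of 6 blood cell markers passed. The 8 neuron markers summed to 26.7, 37.29 and 30.88 cRPKM in the MSI1, SRRM3 and SRRM4 libraries, and to 16.9 cRPKM in the empty vector library, SYP, a synaptic vesicle protein, being at 2.81, 14.49 and 10.84 cRPKM in MSI1, SRRM3 and SRRM4 cells and 2.55 cRPKM in empty vector cells. TUBB3, a neuronal tubulin, was at 21.2, 16.85 and 15.14 cRPKM in the induced lines and 12.01 cRPKM in the empty vector line, while MAP2, a dendritic microtubule protein, was at 2.12, 2.34 and 1.59 cRPKM in the induced lines and 1.93 cRPKM in the empty vector line, lowest in SRRM4. The median log2 ratio of 13 mitochondrial mRNAs was 0.28, 0.61 and 0.090 in the MSI1, SRRM3 and SRRM4 libraries over the empty vector. The part of either in the differences below was not tested.

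The cilium genes were moderately expressed. Their mean cRPKM, a read density per gene length that allows levels of genes to be set side by side, ran over the 51 members from 1.93 to 40.2 with a median of 9.91, against a median of 11.0 over all 12706 genes tested. Counts behind these values ran from 209 to 6110 per gene and library. UNC119 was the most abundant, at 42.43, 42.38 and 39.36 cRPKM in the MSI1, SRRM3 and SRRM4 libraries and 36.5 cRPKM in the empty vector library. TCTN3, a transition zone protein, and PDE6D came next. The lowest of those that passed the filter were BBS12, CC2D2A, TMEM67 and ARL6, with means of 1.93, 1.96, 2.145 and 2.72 cRPKM. The small IFT-B subunits IFT20, IFT22 and IFT27 stood near the top of the IFT group, while the long peripheral subunit IFT172 was the lowest of the 11 IFT-B genes. Levels were close across libraries: the ratio of the highest to the lowest of the 4 values had a median of 1.17 over the 51 members and 1.2 over all genes tested, and its largest value in a member was 1.43 (IFT172).

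**Figure D1:**
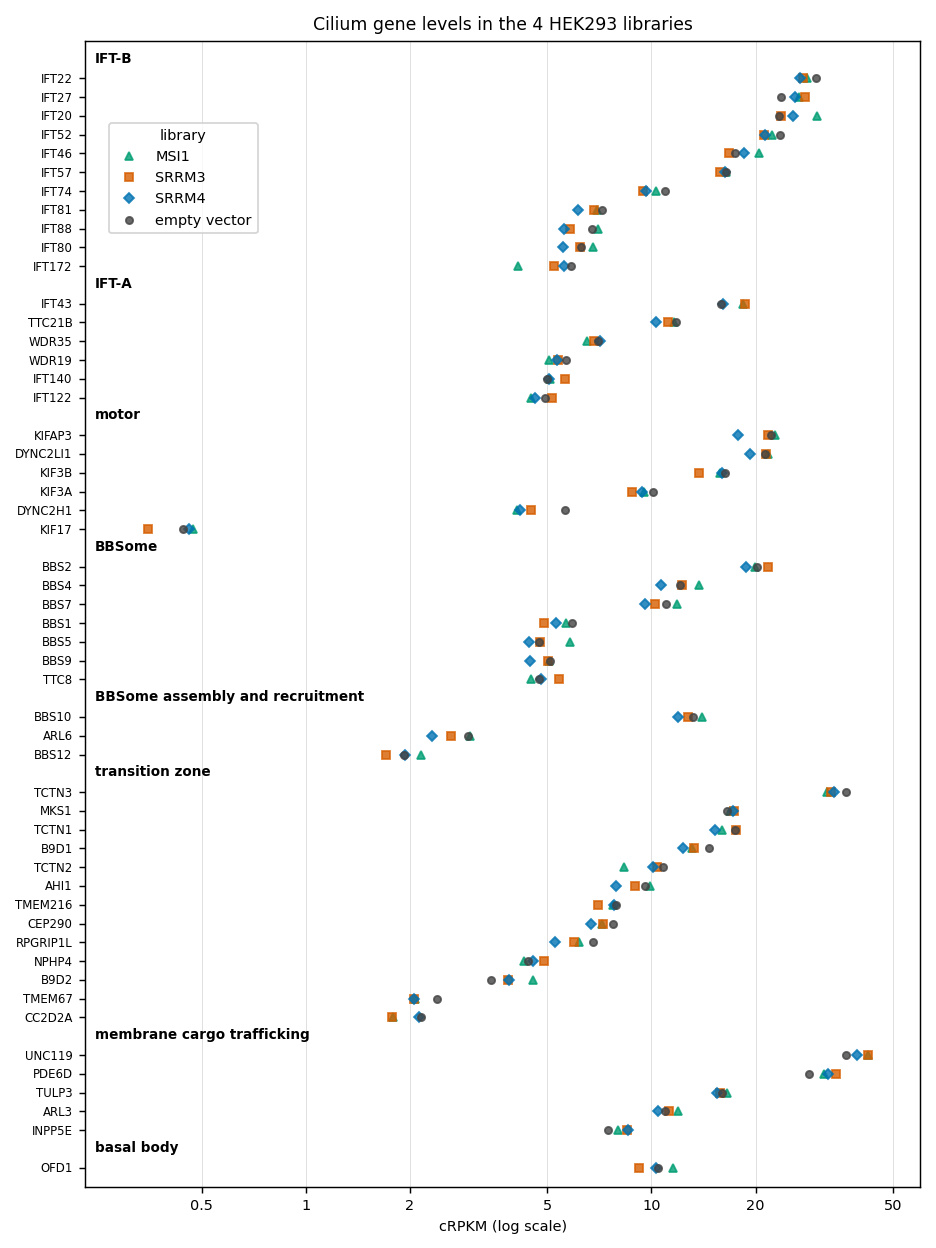
Deposited cRPKM (log axis) of the 52 cilium genes with values in the MSI1, SRRM3, SRRM4 and empty vector libraries, ordered by mean within each sub-complex; each symbol is 1 library. Symbols of a gene lie close together, between genes the level spans KIF17 below 1 cRPKM to UNC119 at about 40.2 cRPKM, and IFT172 (MSI1 library) and DYNC2H1 (empty vector library) each have 1 symbol set apart.

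No cilium gene differed 2-fold in any comparison, measured as the ratio of cRPKM + 0.5. Over all genes tested, 0.307% were 2-fold higher and 0.37% 2-fold lower in MSI1 over the empty vector, 0.59% and 0.299% in SRRM3, 0.559% and 0.22% in SRRM4, and 0.283% and 0.244% in SRRM4 over SRRM3, so a count of 0 among 51 genes is close to the background. Smaller differences were therefore counted by a rule of 1.2-fold in the ratio of depth-scaled counts with an exact 95% counting interval that excludes 1; intervals cover counting error only, since sequenced reads are not independent molecules and no library was repeated. In bulk RNA, fewer cells expressing a gene and less RNA per cell cannot be told apart.

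In MSI1 cells, 3 of the 51 cilium genes were higher by this rule, IFT20, BBS5 and B9D2, where 11.2% of all genes were, and 4 were lower, IFT172, DYNC2H1, CC2D2A and TCTN2, where 7.48% of all genes were. In SRRM3 cells, PDE6D was higher, against 9.81% of all genes, and DYNC2H1, BBS1 and CC2D2A were lower, against 6.47%. In SRRM4 cells 0 were higher, against 4.3% of all genes, and 6 were lower, IFT88, DYNC2H1, KIFAP3, ARL6, RPGRIP1L and AHI1, which is 11.8% of the members against 5.04% of all genes. Between the paralogs, KIFAP3 was lower in SRRM4 than in SRRM3 cells, against 10.3% of all genes, and 0 members were higher, against 6.12%. The shares in MSI1 and SRRM3 cells, and in SRRM4 over SRRM3, were near or below the background, the 4 genes lower in MSI1 cells being 7.84% of the members. The 6 genes lower in SRRM4 cells were a share above the background that rests on few genes. With ratios centred within bins of transcript GC content (described below), 3 were lower, 5.88% of the members against 4.11% of coding genes tested. IFT88, KIFAP3, ARL6 and AHI1 were no longer among them.

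As a group, the cilium genes sat slightly lower in SRRM4 and SRRM3 cells, by an amount that shrank to medians of -0.060 and -0.011 when ratios were centred within bins of GC content. The median log2 ratio of cRPKM + 0.5 came to -0.013 for MSI1 cells, -0.061 for SRRM3 cells and -0.092 for SRRM4 cells over the empty vector, against 0.016, 0.0029 and -0.0035 over all genes tested. It was -0.086 for SRRM4 over SRRM3, against -0.0071 over all genes. A ratio below 1 was found for 27 of 51 members in MSI1, 33 in SRRM3 and 37 in SRRM4 cells, where 46.1%, 49.1% and 50.9% of all genes were below 1, and for 33 of 51 in SRRM4 over SRRM3, where 51.3% were. The median of SRRM4 cells corresponds to a ratio of 0.938. The 3 comparisons with the empty vector share that 1 library, so a value particular to it enters all of them.

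**Figure D2:**
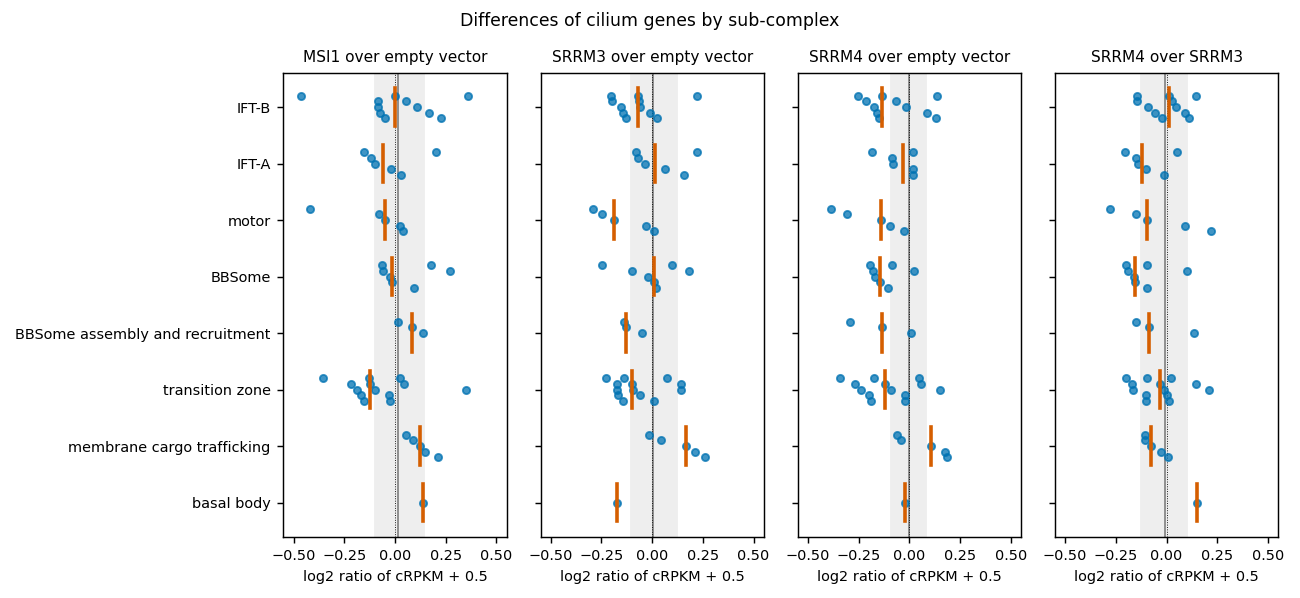
Log2 ratio of cRPKM + 0.5 for each of the 51 cilium genes (points) by sub-complex, with the sub-complex median (orange bar), in MSI1, SRRM3 and SRRM4 over the empty vector and in SRRM4 over SRRM3; the grey line and band are the median and the middle 50% of all 12706 genes tested. Most points fall inside or near the band, the medians of the membrane cargo genes lie right of 0 against the empty vector, at 0.12, 0.17 and 0.11, with ARL3 and TULP3 left of 0 in SRRM4 cells, and the motor genes of SRRM4 cells all lie to the left of 0.

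The 11 IFT-B genes had median log2 ratios of -0.00085, -0.071 and -0.13 in MSI1, SRRM3 and SRRM4 cells over the empty vector. IFT172, a large subunit at the edge of the IFT-B train with a role in turnaround at the tip described in Chlamydomonas, was at 4.11, 5.21 and 5.58 cRPKM in the MSI1, SRRM3 and SRRM4 libraries and 5.86 cRPKM in the empty vector library. MSI1 cells stood apart as the low library, with a count ratio to the empty vector of 0.701 (95% counting interval 0.654 to 0.751). This was the largest fold of any cilium gene. IFT20, which also sorts ciliary membrane proteins at the Golgi, was at 30.11, 23.76 and 25.72 cRPKM in MSI1, SRRM3 and SRRM4 cells and 23.34 cRPKM in empty vector cells, a ratio of 1.29 in MSI1 cells (1.21 to 1.38). MSI1 thus held both the lowest IFT172 and the highest IFT20 value. IFT88, a core subunit whose loss in mice causes the Oak Ridge polycystic kidney phenotype, had 7.01, 5.81 and 5.57 cRPKM in MSI1, SRRM3 and SRRM4 cells, against 6.73 cRPKM in empty vector cells. The SRRM3 and SRRM4 libraries were the low pair, with ratios of 0.863 (0.793 to 0.940) and 0.828 (0.759 to 0.903). The most abundant IFT-B gene, IFT22, was at 28.24, 27.36 and 26.96 cRPKM in the 3 induced lines and 29.92 cRPKM in the empty vector line, and none of its ratios reached 1.2-fold. IFT27, IFT46, IFT52, IFT57, IFT74, IFT80 and IFT81 likewise stayed within the 1.2-fold rule in every comparison.

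None of the 6 IFT-A genes passed the rule in any comparison, and their median log2 ratios were -0.058, 0.016 and -0.033 in MSI1, SRRM3 and SRRM4 cells. IFT43 was the most abundant, at 18.41, 18.67 and 16.14 cRPKM in MSI1, SRRM3 and SRRM4 cells, against 15.92 cRPKM in empty vector cells, with the SRRM4 and empty vector libraries as the low pair. TTC21B, the IFT-A subunit also called IFT139, was at 11.65, 11.13 and 10.33 cRPKM in the induced lines and 11.8 cRPKM in the empty vector line, lowest in SRRM4 with a ratio of 0.875 (0.835 to 0.917). IFT140, in which variants cause retinal dystrophy with or without skeletal disease, was at 5.1, 5.63 and 5.05 cRPKM in MSI1, SRRM3 and SRRM4 cells and 4.99 cRPKM in empty vector cells. IFT122, WDR19 and WDR35 had highest-to-lowest ratios of 1.15, 1.12 and 1.09 over the 4 libraries.

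In the motor genes 4 of 5 were below the empty vector in SRRM3 and all 5 in SRRM4 cells, with median log2 ratios of -0.049, -0.19 and -0.14 in MSI1, SRRM3 and SRRM4 cells. DYNC2H1, the heavy chain of the retrograde dynein, was at 4.07, 4.49 and 4.17 cRPKM in the MSI1, SRRM3 and SRRM4 libraries and 5.61 cRPKM in the empty vector library. The 3 induced lines lay close together and the empty vector line stood above them, so the gene was past the rule in all 3 comparisons with that library, with ratios of 0.726 (0.694 to 0.758), 0.8 (0.767 to 0.835) and 0.742 (0.710 to 0.776). With the MSI1 library in place of the empty vector its log2 ratio was 0.13 in SRRM3 and 0.031 in SRRM4 cells. KIFAP3, the non-motor subunit of kinesin-II, showed another pattern, at 22.77, 21.69 and 17.78 cRPKM in MSI1, SRRM3 and SRRM4 cells and 22.16 cRPKM in empty vector cells. SRRM4 was the 1 low library, at a ratio of 0.802 (0.765 to 0.841) to the empty vector and 0.820 (0.782 to 0.859) to SRRM3 cells. KIF3B, a motor subunit of the same complex, was instead lowest in SRRM3, at 15.77, 13.7 and 16.0 cRPKM in MSI1, SRRM3 and SRRM4 cells and 16.33 cRPKM in empty vector cells, with a ratio of 0.839 (0.808 to 0.871) in SRRM3 cells, short of the rule. The subunits of kinesin-II thus did not share a library in which all were lowest. KIF3A and DYNC2LI1 did not pass the rule in any comparison.

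Within the BBSome, the coat complex mutated in Bardet-Biedl syndrome, median log2 ratios over 7 genes were -0.013 in MSI1, 0.011 in SRRM3 and -0.15 in SRRM4 cells, and 6 of the 7 were below the empty vector in SRRM4 cells. BBS5, a subunit with lipid-binding domains, was at 5.81, 4.77 and 4.43 cRPKM in MSI1, SRRM3 and SRRM4 cells and 4.73 cRPKM in empty vector cells. MSI1 was the high library, at a ratio of 1.23 (1.11 to 1.36). BBS1, the subunit that binds ARL6, was at 5.64, 4.9 and 5.28 cRPKM in the induced lines and 5.9 cRPKM in the empty vector line, with a ratio of 0.830 (0.763 to 0.902) in SRRM3 cells. BBS2, the most abundant, was at 19.9, 21.72 and 18.82 cRPKM in MSI1, SRRM3 and SRRM4 cells and 20.25 cRPKM in empty vector cells, so SRRM4 was lowest and SRRM3 highest, at a ratio of 0.867 between them (0.827 to 0.908). BBS4, BBS7 and BBS9 were also lowest in SRRM4 and passed no rule. Among the genes that build or recruit the complex, BBS10 and BBS12, both chaperonin-like assembly factors, had 14.01, 12.74 and 11.97 cRPKM and 2.16, 1.71 and 1.93 cRPKM in MSI1, SRRM3 and SRRM4 cells, against 13.19 and 1.92 cRPKM in empty vector cells. Neither passed the rule.

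The transition zone was the sub-complex with a median below 0 by about the same amount in all 3 induced lines, at -0.12, -0.098 and -0.12 over 13 genes. TCTN2, a tectonic protein of the gate, was at 8.34, 10.35 and 10.12 cRPKM in MSI1, SRRM3 and SRRM4 cells and 10.82 cRPKM in empty vector cells. MSI1 was the 1 low library, at a ratio of 0.771 (0.719 to 0.825). B9D2, a small B9-domain protein, went the other way in the same library, at 4.53, 3.85 and 3.88 cRPKM in MSI1, SRRM3 and SRRM4 cells and 3.44 cRPKM in empty vector cells, a ratio of 1.32 in MSI1 cells (1.1 to 1.58). RPGRIP1L, a scaffold at the base of the gate, was at 6.19, 5.96 and 5.25 cRPKM in the induced lines and 6.79 cRPKM in the empty vector line, lowest in SRRM4 at a ratio of 0.773 (0.717 to 0.833). AHI1, a Joubert syndrome gene needed for outer segment formation in mice, was at 9.91, 8.98 and 7.91 cRPKM in MSI1, SRRM3 and SRRM4 cells and 9.61 cRPKM in empty vector cells, at a ratio of 0.823 in SRRM4 cells (0.759 to 0.891). For both genes SRRM4 was lowest and SRRM3 next. TCTN3, the most abundant, was at 32.18, 33.16 and 33.72 cRPKM in MSI1, SRRM3 and SRRM4 cells and 36.65 cRPKM in empty vector cells, below 1.2-fold throughout. TCTN1, TMEM67, TMEM216, MKS1, B9D1 and NPHP4 passed the rule in no comparison, MKS1 being among the steadiest at a highest-to-lowest ratio of 1.05.

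The 5 membrane cargo genes had median log2 ratios of 0.12, 0.17 and 0.11 in MSI1, SRRM3 and SRRM4 cells over the empty vector, with 5, 4 and 3 of the 5 above 0. PDE6D, which chaperones prenylated proteins such as the cone and rod phosphodiesterase subunits, was at 31.55, 34.2 and 32.39 cRPKM in MSI1, SRRM3 and SRRM4 cells and 28.47 cRPKM in empty vector cells. Every induced line lay above the empty vector line, and the ratio in SRRM3 cells, 1.2 (1.13 to 1.28), was just past the rule; it no longer passed when counts were centred on the median gene or scaled with TMM factors. UNC119, the chaperone of myristoylated cargo including rod transducin, had the levels given above and ratios of 1.16 (1.11 to 1.22), 1.16 (1.11 to 1.22) and 1.08 (1.03 to 1.13). INPP5E, a lipid phosphatase that PDE6D delivers to the cilium, was at 8.01, 8.49 and 8.54 cRPKM in MSI1, SRRM3 and SRRM4 cells and 7.51 cRPKM in empty vector cells. ARL3 and TULP3, an adaptor for receptors entering with IFT-A, showed no ratio past the rule and in SRRM4 cells had log2 ratios below 0, at -0.061 and -0.039. OFD1, a basal body protein, was at 11.51, 9.2 and 10.28 cRPKM in MSI1, SRRM3 and SRRM4 cells and 10.43 cRPKM in empty vector cells, high in MSI1 and low in SRRM3.

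**Figure D3:**
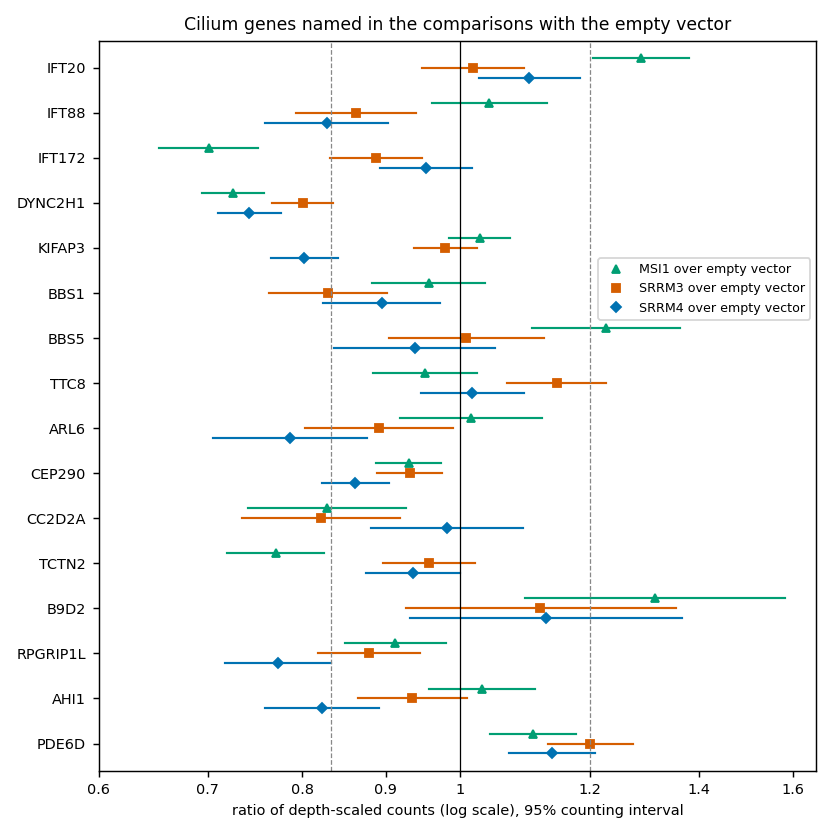
Ratio of depth-scaled counts (log axis) with exact 95% counting intervals for 16 cilium genes in MSI1, SRRM3 and SRRM4 over the empty vector; the solid line is 1 and the dashed lines are 1.2-fold in either direction. DYNC2H1 lies left of 1 in all 3 comparisons, from 0.726 to 0.8, while IFT172 and TCTN2 pass 1.2-fold in MSI1 cells alone among the 3, their other points also lying left of 1, and KIFAP3 passes it in SRRM4 cells alone.

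TTC8, ARL6, CC2D2A and CEP290 are the members listed here as hosts of photoreceptor exons, known mostly from mouse retina, and their gene-level values differed little. The list may not be complete, and other members with short exons are given below. Summed over the 4 genes, the level was 16.48, 17.03 and 15.93 cRPKM in MSI1, SRRM3 and SRRM4 cells and 17.59 cRPKM in empty vector cells. TTC8, a BBSome subunit, was at 4.49, 5.41 and 4.8 cRPKM in MSI1, SRRM3 and SRRM4 cells and 4.72 cRPKM in empty vector cells, with SRRM3 as the high library at a ratio of 1.15 (1.07 to 1.23). ARL6, the GTPase that brings the BBSome to membranes, was at 2.99, 2.63 and 2.32 cRPKM in the MSI1, SRRM3 and SRRM4 lines and 2.95 cRPKM in the empty vector line. It was past the rule in SRRM4 cells, at a ratio of 0.786 (0.705 to 0.877), and SRRM3 lay between, at 0.892 (0.803 to 0.990). CC2D2A, a transition zone protein, was at 1.79, 1.77 and 2.12 cRPKM in MSI1, SRRM3 and SRRM4 cells and 2.16 cRPKM in empty vector cells. Here MSI1 and SRRM3 formed the low pair, at 0.828 (0.741 to 0.926) and 0.821 (0.734 to 0.918). CEP290, which links the gate to the microtubules and is a main gene of Leber congenital amaurosis, was at 7.21, 7.22 and 6.69 cRPKM in MSI1, SRRM3 and SRRM4 cells and 7.76 cRPKM in empty vector cells, passing no rule. The 4 hosts did not share an order of libraries. A gene-level count sums all isoforms, so none of these values shows whether an exon was included.

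The exons in question are very short, and the annotation places such exons in many cilium genes. Internal coding exons of at most 30 nt flanked by introns of at least 50 nt were annotated in 11 of the 53 members (20.8%), against 1764 of 19688 coding genes (8.96%) and 1155 of 11611 coding genes tested (9.95%). Members also have more exons, with a median of 16 in the coding transcript with the most exons, against 8 and 9, and the part of this in the share was not tested. The 11 genes are DYNC2H1, KIF3A, BBS5, BBS9, TTC8, ARL6, CEP290, CC2D2A, TCTN1, AHI1 and UNC119. The sequences of 6 such exons, in the 4 photoreceptor exon hosts and in DYNC2H1, are shown from GENCODE 29 transcripts on GRCh38 because exons of this size are the study's subject; capitals mark the exon and lower case the 20 nt of the exons spliced before and after it.
TTC8 (30 nt, chr14:88833693-88833722, plus strand): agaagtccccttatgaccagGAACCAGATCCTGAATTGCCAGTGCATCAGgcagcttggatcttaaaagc
ARL6 (13 nt, chr3:97791953-97791965, plus strand): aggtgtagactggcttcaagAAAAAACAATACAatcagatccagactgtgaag
CC2D2A (15 nt, chr4:15561588-15561602, plus strand): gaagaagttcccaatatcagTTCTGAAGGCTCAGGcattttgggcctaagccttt
CC2D2A (21 nt, chr4:15576604-15576624, plus strand): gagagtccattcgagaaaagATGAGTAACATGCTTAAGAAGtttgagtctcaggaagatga
CEP290 (21 nt, chr12:88130545-88130565, minus strand): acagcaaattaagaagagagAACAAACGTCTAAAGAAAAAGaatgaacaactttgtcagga
DYNC2H1 (21 nt, chr11:103241527-103241547, plus strand): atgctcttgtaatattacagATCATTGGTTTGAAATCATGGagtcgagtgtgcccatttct

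The TTC8 exon is the one known as exon 2A, spliced in photoreceptors, and lies in 2 of 12 annotated coding transcripts. The ARL6 exon, in 1 of 6, is that of the long form known as BBS3L in the eye, and its length is not a multiple of 3, so the reading frame after it differs. The other exons shown keep the frame. Whether the short exons of CC2D2A, CEP290 and DYNC2H1 are among the study's retinal exons is not stated in the labels. The 11 genes with a short exon had median log2 ratios of -0.065, -0.093 and -0.18 in MSI1, SRRM3 and SRRM4 cells over the empty vector, and the 40 without one 0.012, -0.060 and -0.085. Of the 6 genes lower in SRRM4 cells, DYNC2H1, ARL6 and AHI1 carry a short exon, as do 11 of the 51 members. ARL6 and AHI1 were no longer past the rule when ratios were centred within bins of GC content. The split by short exon was not made over all genes tested, and the part of short exons in these differences was not tested.

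The order of the libraries told the same differences in another way. The empty vector value was the highest of the 4 in 21 of the 51 members (41.2%), against 18.5% of all genes tested, and the lowest in 9 (17.6%), against 21.3%. MSI1 was the highest in 18 members, against 33.6% of all genes, and SRRM3 in 10, against 26.1%. SRRM4 was the lowest in 21 members (41.2%), against 24.5% of all genes, and the highest in WDR35 and INPP5E alone, 2 of 51 against 21% of all genes. In 20 members both SRRM3 and SRRM4 lay below both MSI1 and the empty vector, against 18.9% of all genes; 7 of them are IFT-B genes. The reverse held in 5 members, TTC8, MKS1, NPHP4, INPP5E and PDE6D, against 15.5% of all genes.

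GC content of the transcripts moved with these differences. Spearman's rho between the GC content of a gene's longest transcript and its log2 ratio over the empty vector came to 0.14 for MSI1 cells, 0.41 for SRRM3 cells and 0.59 for SRRM4 cells across the 51 members, and 0.083, 0.41 and 0.48 across 11611 coding genes tested; the genes share libraries and are not independent replicates. Members' transcripts had a median GC content of 45.3%, against 48.4% for coding genes tested, and with coding genes divided into 5 equal bins of GC content, 19 of the 51 fell in the lowest bin. In that bin the median log2 ratio of SRRM4 cells was -0.18 for members and -0.079 for coding genes; in the next bins up it was -0.082 and -0.050, -0.061 and -0.0038, and -0.054 and 0.039, and in the bin of highest GC content 0.088 for 6 members and 0.090 for coding genes. DYNC2H1, KIFAP3, ARL6, AHI1 and IFT88 had GC contents of 38.3%, 37.8%, 34.9%, 38.7% and 39.1%, and the cargo genes INPP5E, UNC119, PDE6D, ARL3 and TULP3 had 64.0%, 54.9%, 49.0%, 48.7% and 48.5%. When ratios were centred within 20 bins of GC content, an alternative added after the data were seen, the members' median log2 ratios were -0.019, -0.011 and -0.060 in MSI1, SRRM3 and SRRM4 cells and -0.068 for SRRM4 over SRRM3. The genes lower in SRRM4 cells were then 3, RPGRIP1L, B9D1 and DYNC2H1, against 4.11% of coding genes tested. KIFAP3 was no longer past the rule in either SRRM4 comparison. DYNC2H1 kept log2 ratios of -0.42 in MSI1, -0.22 in SRRM3 and -0.30 in SRRM4 cells, the SRRM3 value falling short of the rule. The median genomic span was 53448 bp for members and 33802 bp for coding genes tested.

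**Figure D4:**
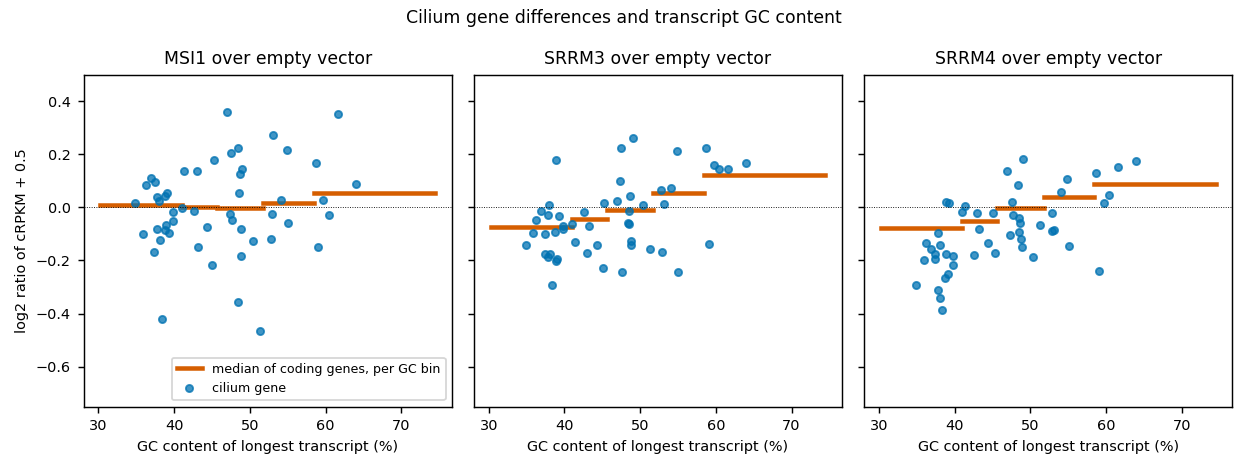
Log2 ratio of cRPKM + 0.5 over the empty vector against the GC content of the longest transcript, for the 51 cilium genes (points) and as the median of coding genes in each of 5 bins of GC content (orange bars), in MSI1, SRRM3 and SRRM4 cells. The bars step up with GC content in SRRM3 and SRRM4 cells, to 0.12 and 0.090 in the highest bin, and most cilium genes of the lowest bin lie below their bar in SRRM4 cells.

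The promoters of these genes are known to carry X-box motifs, the sites of RFX transcription factors. RefSeq promoter windows on GRCh38.p14, from 250 bases before to 50 after the start, were found for 48 of the 53 members. The half-site GTTGCC, searched on both strands, was present in 22 of the 48 (45.8%), against 16.8% of 9527 coding genes tested and 14.6% of all 27305 genes with a window. The full palindrome was searched only with 2 bases between its arms, GTTNCC and GGNAAC, and can contain the half-site. In this form it was found in ARL6 alone, 1 of 48, against 0.735% of coding genes tested. In the windows of TCTN1 and TCTN3 the arms GTTGCC and GGCAAC lie 1 base apart, a spacing that was not searched. The half-site was also found in PDE6D, IFT27 and B9D2, which lay above the empty vector in SRRM4 cells. Whether the motif goes with lower ratios was not tested. ARL6 and DYNC2H1 were chosen for display because they were among the lower genes in SRRM4 cells. The window of ARL6 around the palindrome and that of DYNC2H1 around the first of its 2 half-sites are shown, with the motif in capitals.
ARL6 (chr3:97764714-97764767, plus strand): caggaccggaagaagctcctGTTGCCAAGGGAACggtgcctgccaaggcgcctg
DYNC2H1 (chr11:103109355-103109400, plus strand): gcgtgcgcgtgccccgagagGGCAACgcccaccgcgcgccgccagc

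RFX1, an RFX factor that binds this motif, was at 5.96, 6.46 and 6.19 cRPKM in MSI1, SRRM3 and SRRM4 cells and 5.22 cRPKM in empty vector cells. Other listed RFX genes did not share this order. Log2 ratios in MSI1, SRRM3 and SRRM4 cells were 0.16, -0.0007 and 0.057 for RFX5 and -0.091, 0.017 and -0.038 for RFX7. RFX2 and RFX3 did not pass the filter, at 0.72 and 0.77 cRPKM in empty vector cells, values that rest on 174 and only 15 counts. FOXJ1, the factor of motile cilia, did not pass the filter, at 0.21, 0.09 and 0.07 cRPKM in the induced lines and 0.10 cRPKM in the empty vector line. A match of letters is a description of the window, not a measured binding site.

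Other genes of the same machinery, outside the 53, gave similar medians. Of 48 with values 47 passed the filter, and their median log2 ratios were -0.0069, -0.038 and -0.072 in MSI1, SRRM3 and SRRM4 cells over the empty vector and -0.037 for SRRM4 over SRRM3. By the 1.2-fold rule 3, 1 and 1 were higher in MSI1, SRRM3 and SRRM4 cells, against 11.2%, 9.81% and 4.3% of all genes, and 2, 4 and 5 were lower, against 7.48%, 6.47% and 5.04%. In SRRM4 over SRRM3, 2 were higher and 5 lower, against 6.12% and 10.3%. BBIP1, the smallest BBSome subunit, was at 10.73, 7.64 and 8.34 cRPKM in MSI1, SRRM3 and SRRM4 cells and 8.35 cRPKM in empty vector cells, high in MSI1 as BBS5 was. RPGR, the main gene of X-linked retinitis pigmentosa, was at 7.03, 6.79 and 6.51 cRPKM in the induced lines and 7.62 cRPKM in the empty vector line and passed no rule. The near-identical paralogs TTC30A and TTC30B, IFT-B subunits, were both lower in SRRM4 than in SRRM3 cells, at ratios of 0.774 and 0.703, but counting could have divided shared reads between them.

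Some members share exonic bases with a neighbour. On the opposite strand these include IFT20 with TMEM97 (361 bases), IFT80 with SMC4 (607), BBS1 with ZDHHC24 (759), CEP290 with C12orf29 (401), B9D2 with TMEM91 (40) and PDE6D with COPS7B (72); on the same strand, IFT43 with TTLL5 (85) and TULP3 with RHNO1 (60). The library kit keeps strand, but whether the counting used it is not stated in the labels, so reads from these stretches may be assigned to either gene. IFT172 shares 55 bases with KRTCAP3, which had 8, 18 and 19 counts in MSI1, SRRM3 and SRRM4 cells and 11 counts in empty vector cells.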

How the data were processed

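Each library had a table, without a header, of Ensembl gene IDs with cRPKM (a corrected RPKM) and whole-number counts of reads, both as deposited. Per the submitters' processing notes the genome was GRCh38 (hg38); the labels name no aligner, counter or annotation release and do not say whether counting used strand. The deposited RPKM values behaved as counts divided by library total and a gene-specific length, over 8406 well-covered genes. Of 41614 genes listed, 1426 had no value; symbols, coordinates and transcripts come from GENCODE 29, matching 39941 of 40188.

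Log2 ratios used cRPKM plus a pseudocount of 0.5, which understates differences of low genes, for 12706 genes with a mean of at least 1. Count ratios were scaled by library totals, with exact conditional (Clopper-Pearson) 95% intervals. A count of 3 or fewer is the floor. The count ratios, their intervals and the 1.2-fold rule were tested on simulated counts. Those counts held counting error only, with no variation between cultures, and the log2 ratios of cRPKM were not simulated. Replication was absent, so no model across samples was fitted. The members and gene lists were chosen with earlier results of these data known. Named genes are the photoreceptor exon hosts and, per sub-complex, the most abundant gene and up to 3 with the largest ratios; others were added for their counts by the 1.2-fold rule. TTC30A, TTC30B, RPGR, BBIP1, RFX1, RFX2, RFX3, RFX5, RFX7, FOXJ1, MAP2, GLI1, HHIP and PCM1 were chosen after their values were seen. Alternatives were pseudocounts of 0.1 and 2, other filters, centring, CPM with TMM factors from edgeR (version 4.0.16, in R 4.3.3), other folds, the MSI1 library as control and centring by GC content. Python 3.11.15 with scipy 1.17.1 was used.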

Additional observations from a re-analysis of the deposited data

How the results depend on the processing

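No cilium gene reached 2-fold in any comparison under any alternative run. The median log2 ratios stayed below 0 under all alternatives run except in MSI1 cells, where the median was near 0 and became 0.012 with a mean of at least 5 cRPKM. In SRRM3 cells the median moved to -0.011 when centred within bins of GC content; the cause was not tested. Counts by the 1.2-fold rule depend on the fold chosen. At 1.1-fold, higher and lower counts were 10 and 8 in MSI1 cells (23% and 17.2% of all genes), 8 and 15 in SRRM3 (19.9% and 17.3%), 3 and 21 in SRRM4 (12.4% and 14.6%) and 5 and 15 for SRRM4 over SRRM3 (16.6% and 20.9%), and at 1.5-fold every count was 0. With a mean of at least 5 cRPKM, 40 members were tested. MSI1 cells then had 1 higher and 2 lower (7.79% and 6.28% of all genes at that filter). SRRM3 cells had 1 higher and 1 lower (5.68% and 5.92%), and SRRM4 cells 0 higher and 4 lower (2.5% and 3.42%). SRRM4 over SRRM3 had 0 higher and 1 lower (5.62% and 6.23%). Centring on the median gene or TMM factors left 0 higher in SRRM3 cells, against 9.54% and 8.99% of all genes. Both gave 1 (CC2D2A) higher in SRRM4 over SRRM3, against 6.61% and 7.08%. With TMM factors 4 were lower in SRRM3 cells, KIF3B being added, against 7.08% of all genes. Centring by GC content left 3 lower in SRRM4 cells and 0 lower in SRRM4 over SRRM3, against 4.11% and 9.69% of coding genes tested. With the MSI1 library as control, SRRM3 cells had 3 higher and 6 lower (11.3% of all genes each way) and SRRM4 cells 2 higher and 8 lower (8.94% and 13.3%), and DYNC2H1 reversed to log2 ratios of 0.13 in SRRM3 and 0.031 in SRRM4 cells, the MSI1 value being lower than the empty vector value. Of 416 alternatives for 16 single genes, 385 stayed within the counting interval, 29 moved outside it and 2, those of DYNC2H1, reversed. A change of sign counted as a reversal only for a gene past the 1.2-fold rule in the main run, so other changes of sign are not among the 2. IFT172 and TCTN2 lay below the empty vector in SRRM3 and SRRM4 cells without passing the rule. With the MSI1 library as control both were higher by the rule in SRRM3 and SRRM4 cells. Dropping the filter on low values cannot change the ratio of a single gene. Those alternatives therefore stay within the interval by construction, and the 385 include them. No paired analysis was possible because each group has 1 library. Depth limits B9D2 most, with 209 to 279 counts; with 1 library per group, a difference between lines cannot be told apart from a difference between cultures.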

Other observations

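Hedgehog receptors and transducers pass through the primary cilium, and the mRNA levels of these components were tabulated; signalling itself was not measured. Of 12 Hedgehog pathway genes 10 passed the filter, with median log2 ratios of -0.092, 0.11 and -0.040 in MSI1, SRRM3 and SRRM4 cells over the empty vector. GAS1, a co-receptor for Hedgehog ligands, was at 4.89, 8.61 and 7.48 cRPKM in MSI1, SRRM3 and SRRM4 cells and 7.96 cRPKM in empty vector cells, a ratio of 0.614 in MSI1 cells (95% counting interval 0.563 to 0.670). PTCH1, the receptor and a target of the pathway, was lower in the same library, at a ratio of 0.801 (0.758 to 0.846). CDON, another co-receptor, was lowest in SRRM4, at 4.29, 4.12 and 3.37 cRPKM in MSI1, SRRM3 and SRRM4 cells and 4.92 cRPKM in empty vector cells. KIF7, the kinesin of the ciliary tip, was highest in SRRM4, at 8.43, 9.7 and 10.74 cRPKM in MSI1, SRRM3 and SRRM4 cells and 8.34 cRPKM in empty vector cells. GLI1, a transcription factor that is the pathway's usual target readout, did not pass the filter. It was at 0.53, 0.32 and 0.34 cRPKM in MSI1, SRRM3 and SRRM4 cells and 0.25 cRPKM in empty vector cells. Its count ratio in MSI1 cells, 2.11 (1.53 to 2.95), was on the side opposite to GAS1 and PTCH1. HHIP, which also did not pass, was at 0.13, 0.12 and 0.15 cRPKM in the induced lines and 0.23 cRPKM in the empty vector line. The HHIP ratio in MSI1 cells, 0.556 (0.417 to 0.738), was on the same side as GAS1 and PTCH1.

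The centrosome is the source of the basal body. All 15 centrosome and centriolar satellite genes with values passed the filter, and their median log2 ratios were 0.014, -0.0061 and 0.0083 in MSI1, SRRM3 and SRRM4 cells, with single genes of SRRM4 cells between -0.35 (CEP192) and 0.25 (CENPJ). CEP192, which organises centrosome maturation, was at 11.5, 11.15 and 9.79 cRPKM in MSI1, SRRM3 and SRRM4 cells and 12.62 cRPKM in empty vector cells, a ratio of 0.776 in SRRM4 cells (0.747 to 0.806). PCM1, the scaffold of centriolar satellites, was at 25.51, 25.85 and 25.41 cRPKM in the induced lines and 25.87 cRPKM in the empty vector line. Among 10 G2/M genes, CDK1 was lower in SRRM3 and SRRM4 cells, at ratios of 0.8 and 0.751 to the empty vector, and no other gene of that list passed the rule. These lists were chosen with earlier results of these data known and are given as values.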
